A study of Mus musculus with 6 samples.

Results

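The genes described here are the 50 protein-coding genes of the mouse Wnt system that carry the symbols of Wnt ligands, Frizzled receptors, the co-receptors Lrp5, Lrp6, Ror1 and Ror2, the secreted Frizzled-related proteins (Sfrp genes and Frzb), the Dickkopf proteins (Dkk), the R-spondins (Rspo), their receptors Lgr4, Lgr5 and Lgr6, and the feedback target Axin2. Every protein-coding gene with such a symbol in the GENCODE M21 annotation was taken, out of 55536 genes counted. They comprise 19 ligands, 10 Frizzled receptors, 4 co-receptors, 5 secreted Frizzled-related genes, 4 Dickkopf genes, 4 R-spondins, 3 R-spondin receptors and Axin2. RNA-seq read counts were available for 3 control and 3 Hira cKO samples of muscle satellite cells, the resident stem cells of skeletal muscle. The question addressed was how the expression of these genes differed once Hira, which encodes a chaperone that deposits the histone variant H3.3, was deleted in these cells.

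All mice were C57BL/6J males aged 8 to 12 weeks that received a tamoxifen diet for 2 weeks and regular food for 1 week, and BaCl2, an agent that injures muscle fibres, was then injected into the Tibialis anterior. Controls were Pax7CreErt2;Hira fl/+ mice, named WT in the sample labels, and cKO mice were Pax7CreErt2;Hira fl/fl, so both groups carried the Cre recombinase and at least 1 floxed allele. Recombination was restricted to cells that express Pax7, a transcription factor of satellite cells. CD34+ ITGA7+ CD45- TER119- SCA1- cells were sorted 5 days after injury and cultured for 48 h in 20% fetal calf serum with bFGF. The sources call the replicates independent RNA samples without tying each to a mouse, so the p-values measure the spread between these samples, which may in part be technical.

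Wnt proteins are secreted lipid-modified signals that bind Frizzled receptors on the cell surface. With Lrp5 or Lrp6 they stabilise beta-catenin, which acts with TCF/LEF factors on target genes such as Axin2, whereas Wnt5a with Ror2 is the classical example of signalling that does not need beta-catenin. Secreted Frizzled-related proteins bind Wnts in the extracellular space, and Dickkopf proteins such as Dkk1 act on Lrp5 and Lrp6. R-spondins acting through Lgr receptors keep Frizzled and Lrp proteins at the cell surface. In regenerating muscle, Wnt7a acting through Fzd7 is known for the symmetric expansion of satellite cells, and beta-catenin signalling has been tied to the differentiation of their progeny.

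Between 47944477 and 63323577 reads were assigned to genes in each sample, and CPM below is the count per 1000000 of these reads. The targeted gene Hira gave 375, 348 and 341 reads in the controls against 161, 293 and 272 in cKO, lower in all 3 cKO samples, with a log2 fold change of -0.43 ± 0.12 (SE, n = 3 per group, edgeR adjusted p = 0.0237). Without control replicate 1 the value was -0.34 with an edgeR adjusted p of 0.104, and over the alternatives the adjusted p ran from 2.93e-05 to 0.104. Of its exon bases, 44.7% are shared with another annotated gene, Gm28539, on the same strand, and the counts do not show whether the floxed exons were lost. The libraries labelled cKO thus kept a part of the Hira reads. Among marker lists of cell types, 7 of 9 tested satellite cell and myoblast genes fell, and all 12 macrophage genes, 7 of 10 fibroblast genes and 6 of 12 endothelial genes rose. Of all protein-coding genes tested, 12.8% rose and 8.5% fell. The myogenic genes Pax7 and Myod1, which were not used for the sort, were read in every sample. Over both groups Pax7 had between 1639 and 2468 counts and Myod1 between 33286 and 48769 counts. These ranges are raw counts and do not compare the groups.

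Of the 50 genes, 36 had enough counts to be tested. Among these, 8 rose and 8 fell in cKO cells (edgeR quasi-likelihood test, Benjamini-Hochberg adjusted p under 0.05 over 22404 genes), and 20 did not pass the threshold. The genes that rose were the ligands Wnt2, Wnt5a and Wnt10b, the co-receptor Ror2, the secreted modulators Dkk2, Sfrp1 and Sfrp2, and the R-spondin Rspo2. Of these, Rspo2 and Wnt2 passed the count filter only with the help of their higher cKO samples. Their calls, here and in the counts below, are therefore descriptions of genes selected in part by that group. The genes that fell were the ligand Wnt9a, the receptors Fzd1, Fzd2, Fzd5 and Fzd7, the co-receptor Lrp6, and Lgr4 and Lgr6. Over all genes tested 15.8% were called, 9.38% higher and 6.46% lower in cKO, and over protein-coding genes alone 21.3% were called, 12.8% higher and 8.5% lower. The Wnt genes were called in 44.4% of the tested cases, 22.2% in each direction. Their median log2 fold change was -0.0147, beside -0.0011 for all genes tested. In 20 of the 36 genes the CPM values of the 2 groups did not overlap, 12 with all cKO samples above and 8 with all below. Of all genes tested, non-coding ones included, 31.4% did not overlap, and the share among protein-coding genes alone was not computed.

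The counts of calls depended on single samples. Without control replicate 2 there were 5 genes higher, and the 8 genes lower became 4 without cKO replicate 3 and 5 without control replicate 1, 2 or 3. Over all genes, 917, 934 and 960 were lower without control replicates 1, 2 and 3, against 1448 with all samples. Wnt5a, Dkk2, Ror2, Sfrp1, Rspo2, Wnt9a, Fzd2, Lrp6 and Lgr4 were called under every alternative that gave them an adjusted p, and none of the 16 called genes changed direction under any of the 13 alternatives in which it was fitted. In a plot of the fitted differences by role, the secreted members lay mostly to the right of 0 and the receptors mostly to the left.

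**Figure D1:**
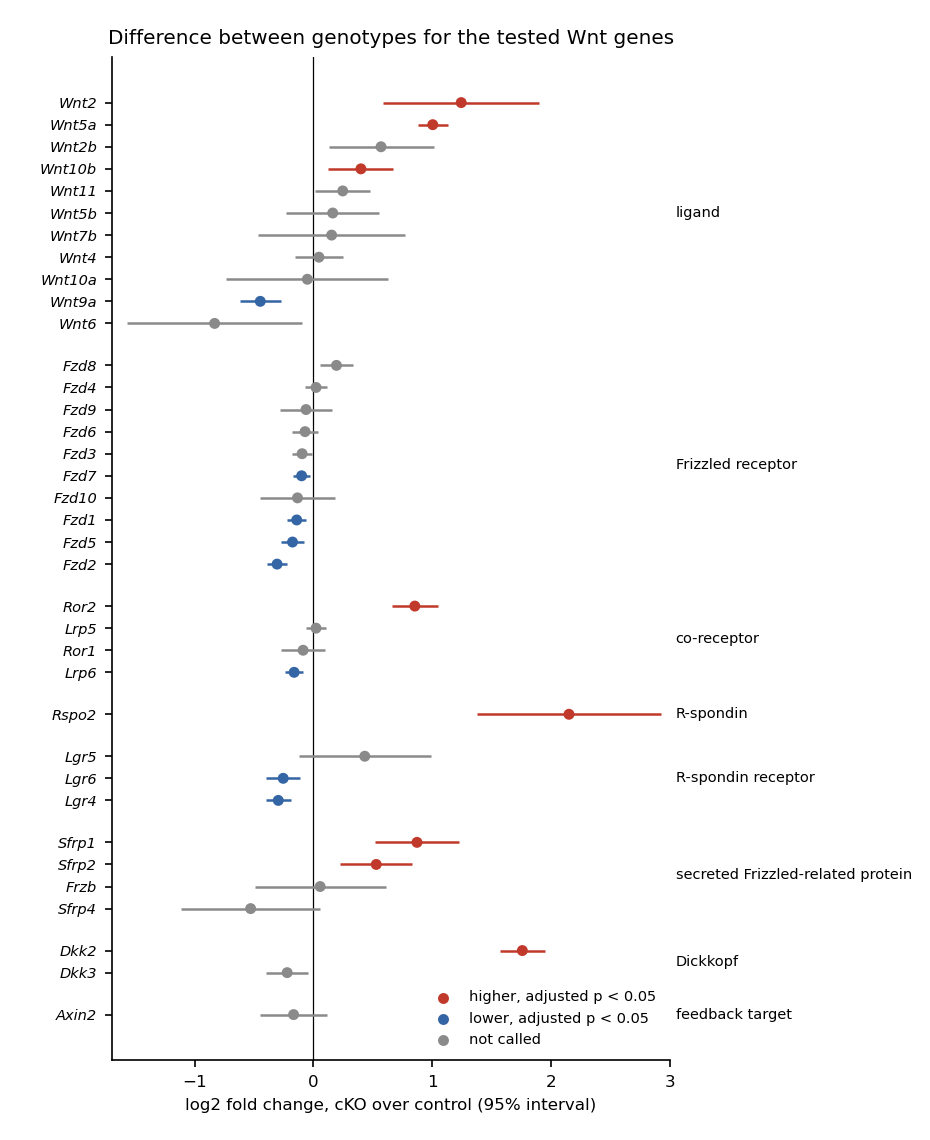
Each point is the fitted log2 fold change of cKO over control for 1 of the 36 tested genes, grouped by role, and each line its 95% interval (3 samples per group). Rspo2 at 2.15 and Dkk2 at 1.76 lie farthest to the right among the genes called higher, and the 4 Frizzled genes called lower lie between -0.31 and -0.10.

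The level of these genes was compared per kilobase of exon, on CPM scaled by TMM factors (a scaling for library make-up), since a longer gene collects more reads. Fzd7 was the most abundant of the 50 genes with 20.1 CPM per kb in control and 18.7 in cKO cells, followed over all samples by Fzd2, Wnt9a, Fzd1, Lrp6, Fzd5, Lgr4, Lrp5, Fzd3 and Lgr6. Wnt9a was the only ligand among the first 10. Dkk3 had the highest level of the genes grouped here as secreted inhibitors, at 2.29 in control and 1.97 CPM per kb in cKO cells. The reads were aligned without splicing, which can cost genes with many exons the reads that cross exon junctions, whereas Fzd1, Fzd2 and Fzd7 have a single exon. With the length of the longest transcript in place of all exons, the level over all samples came to 16.3 for Lrp6, 8.16 for Lgr4 and 7.02 CPM per kb for Lrp5, and Lrp6 came directly after Fzd7.

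**Figure D2:**
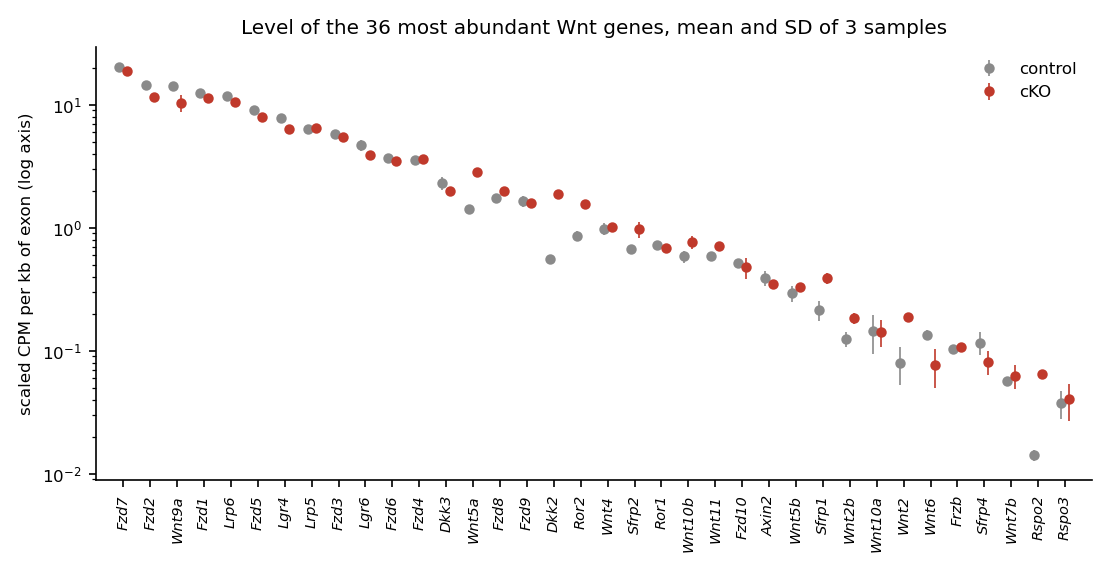
Points give the mean level of the 36 most abundant Wnt genes in scaled CPM per kb of exon on a log axis, with the SD of 3 control (grey) and 3 cKO (red) samples. Receptors and Wnt9a hold the upper end, from 20.1 for Fzd7 in control cells, and Dkk2, Wnt5a, Rspo2 and Ror2 show cKO points set apart above their controls.

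The remaining 14 genes were too low to be tested, with at most 9 counts in a sample. They were Wnt1, Wnt3, Wnt3a, Wnt7a, Wnt8a, Wnt8b, Wnt9b, Wnt16, Dkk1, Dkk4, Rspo1, Rspo3, Rspo4 and Sfrp5, of which 10 had 3 or fewer counts in every sample. Wnt7a had 1, 0 and 2 counts in control against 0, 0 and 3 in cKO samples, at or under 3 counts in every sample. Dkk1, a secreted antagonist that binds Lrp6, had 0, 0 and 2 counts in control against 0, 1 and 0 in cKO samples. No test was made of these 14 genes.

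Among the ligands, Wnt9a and Wnt5a moved in opposite directions. Wnt9a, a ligand associated with joint formation, is a 4-exon gene at chr11:59306928-59333552 (mm10, plus strand, ENSMUSG00000000126). It had 50.4, 45.1 and 45.4 CPM in control and 28.6, 38.4 and 37.8 CPM in cKO samples. All 3 cKO samples lay below the lowest control, and cKO replicate 1 was the lowest. The log2 fold change of Wnt9a was -0.45 ± 0.08 (SE) with an adjusted p of 0.00118 in edgeR's test.

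Wnt5a lies at chr14:28504750-28527448 (mm10, plus strand, 5 exons, ENSMUSG00000021994). It had 11.5, 11.1 and 10.4 CPM in control and 21.5, 24.2 and 21.5 CPM in cKO samples, from 652, 703 and 637 against 1032, 1432 and 1203 counts. The groups did not overlap and the spread within each was small beside the gap between them. The mean CPM of Wnt5a was 2.04 times as high in cKO cells, and the log2 fold change was 1.01 ± 0.06 (SE) with an adjusted p of 1.45e-08 in edgeR's test. Antisense to it, Gm2670 overlaps 4.6% of its exon bases.

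Because the major ligand fell and Wnt5a rose, the make-up of the ligand transcripts differed. Wnt9a made up 76.1% ± 1.1 (SD, n = 3) of the summed ligand level per kb in control and 61.8% ± 3.6 in cKO cells, and Wnt5a 7.59% ± 0.21 and 17.0% ± 1.4. The level of Wnt9a was 9.56 to 10.3 times that of Wnt5a in the control samples and 3.12 to 4.12 times in the cKO samples. The ratio thus did not overlap between the groups. The summed ligand level itself, on library totals, was 18.5 ± 1.1 CPM per kb in control and 16.9 ± 1.8 in cKO cells, and the samples overlapped.

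Wnt2 and Wnt10b, the other ligands that rose, were less abundant. Wnt2 had 14, 10 and 8 counts in control against 19, 26 and 25 in cKO samples (log2 fold change 1.24 ± 0.31, SE, edgeR adjusted p = 0.0112). Wnt10b, known as a ligand that restrains adipogenesis, had 2.16, 2.04 and 1.71 CPM in control and 2.44, 3.01 and 2.44 in cKO samples (0.40 ± 0.13, edgeR adjusted p = 0.0467). Neither gene overlapped between the groups, but both calls were lost in DESeq2 and when some single samples were left out, Wnt2 without control replicates 2 or 3 and Wnt10b without any single sample other than cKO replicate 1. The adjusted p of Wnt2 rose to 0.0664 and that of Wnt10b to 0.194 at most over the alternatives run with edgeR or DESeq2.

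Of the 11 ligands tested, 3 rose (27.3%), 1 fell (9.09%) and 7 did not pass, beside 12.8% higher and 8.5% lower among all protein-coding genes tested. Wnt2b (0.57 ± 0.21) and Wnt11 (0.25 ± 0.11) had all 3 cKO samples above the controls, with adjusted p of 0.0797 and 0.156 in edgeR's test. Wnt6, with 18, 17 and 18 counts in control against 10, 6 and 11 in cKO samples, all lower, had a log2 fold change of -0.83 ± 0.34 and an edgeR adjusted p of 0.125. Wnt4, Wnt5b, Wnt7b and Wnt10a had log2 fold changes between -0.05 and 0.16, and their samples overlapped. For Wnt4, which follows Wnt5a in level per kb among the ligands, the 95% interval ran from -0.16 to 0.25.

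**Figure D3:**
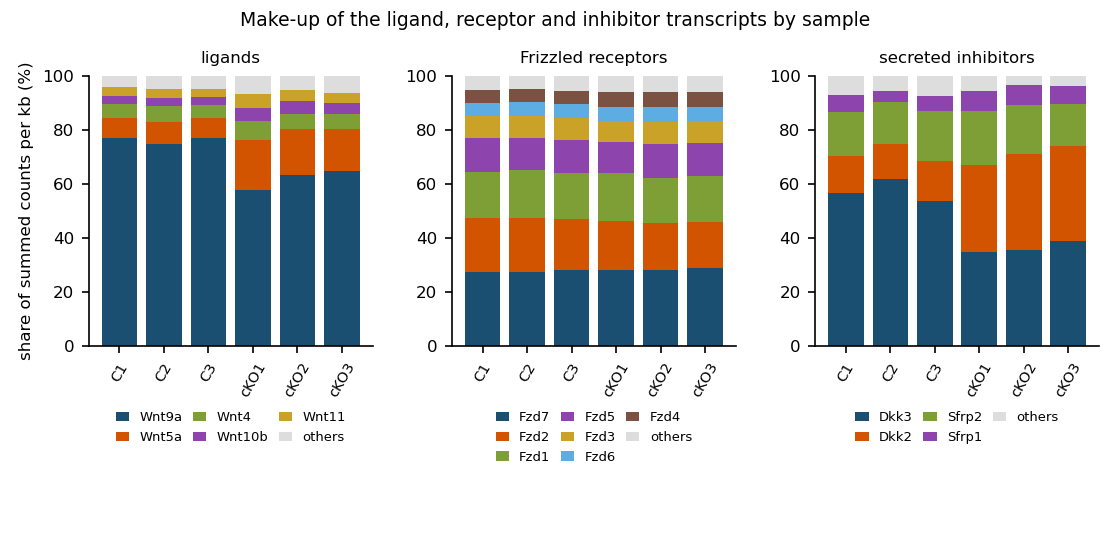
Stacked bars give the share (%) of each gene in the summed level per kb of the ligands, the Frizzled receptors and the secreted inhibitors, for control samples C1 to C3 and cKO samples cKO1 to cKO3. Wnt9a and Dkk3 take a smaller and Wnt5a and Dkk2 a larger share in every cKO sample, and the shares of the Frizzled genes look nearly alike, Fzd7 holding 27.6% in control and 28.3% in cKO cells.

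All 10 Frizzled genes were expressed well enough to be tested. The changes were small, and 8 of the 10 fold changes were below 0. Of the 10 genes 4 fell, or 40.0% beside 8.5% of all protein-coding genes tested, and the remaining 6 did not pass. Fzd2 had 53.8, 52.9 and 49.3 CPM in control and 43.4, 43.1 and 41.7 CPM in cKO samples, with no overlap and a log2 fold change of -0.31 ± 0.04 (SE, edgeR adjusted p = 7.36e-05). Fzd2 is a single-exon gene at chr11:102604396-102608058 (mm10, plus strand, ENSMUSG00000050288).

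Fzd1 fell by 0.14 ± 0.04 on the log2 scale (edgeR adjusted p = 0.0182), from 52.1, 53.1 and 49.8 CPM to 48.8, 47.0 and 47.1 CPM, without overlap. Fzd5 had 64.1, 59.4 and 61.5 CPM in control and 51.4, 59.4 and 55.5 CPM in cKO samples, a log2 fold change of -0.18 ± 0.05 (edgeR adjusted p = 0.0172) with overlapping groups. A gene on the other strand, Gm38058, overlaps 17.8% of the exon bases of Fzd5. The call of Fzd1 was lost without cKO replicate 3 or control replicate 1 or 2, with edgeR adjusted p up to 0.110, and that of Fzd5 without cKO replicate 3 or control replicate 1 or 3, with adjusted p up to 0.0824.

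Fzd7, the receptor named above for the expansion of satellite cells, had 91.4, 88.9 and 90.1 CPM in control and 83.5, 86.0 and 87.1 CPM in cKO samples. The groups did not overlap, and the log2 fold change of -0.10 ± 0.03 (SE) had an edgeR adjusted p of 0.0481. This call was kept under 2 of 13 alternatives and lost whichever sample was left out. The mean CPM of Fzd7 in cKO cells was 0.949 times that in control cells.

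Fzd8 moved the other way, with 10.03, 9.78 and 11.1 CPM in control and 11.6, 12.8 and 11.5 CPM in cKO samples (log2 fold change 0.19 ± 0.07, edgeR adjusted p = 0.0593). It passed the threshold under 5 of the 13 alternatives. Fzd3, Fzd4, Fzd6, Fzd9 and Fzd10 had log2 fold changes between -0.13 and 0.02. The summed Frizzled level, on library totals, was 72.1 ± 1.4 CPM per kb in control and 66.6 ± 1.1 in cKO cells (SD, n = 3), without overlap. Fzd2 fell from 19.7% to 17.5% of this sum.

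The co-receptors diverged. Ror2, a receptor tyrosine kinase-like receptor for Wnt5a, lies at chr13:53109312-53286124 (mm10, minus strand, 9 exons, ENSMUSG00000021464) and had 3.40, 3.98 and 3.49 CPM in control and 6.07, 7.32 and 6.56 CPM in cKO samples. The cKO samples all lay above the controls, and the log2 fold change was 0.85 ± 0.09 (SE) with an adjusted p of 9.45e-06 in edgeR's test. Its relative Ror1 had 4.30, 3.995 and 4.14 against 4.23, 3.92 and 3.76 CPM, with overlap and a 95% interval of the log2 fold change from -0.27 to 0.10. The ratio of Ror1 to Ror2 per kb was 0.739 to 0.932 in control and 0.394 to 0.514 in cKO samples, so Ror2 was the more abundant of the pair in every sample and its lead was larger in cKO cells.

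Lrp6 had 164, 158 and 157 CPM in control and 140, 153 and 143 CPM in cKO samples, all cKO samples below, with a log2 fold change of -0.16 ± 0.04 (SE, edgeR adjusted p = 0.0046). Lrp5 had 61.8, 62.7 and 59.8 against 60.9, 66.5 and 62.9 CPM. These overlapped, and the 95% interval of the log2 fold change of Lrp5 was -0.06 to 0.10. Counted with the Frizzled and Lgr genes, 1 of the 17 receptor and co-receptor genes rose and 7 fell, and 7 of the 18 tested secreted members rose and 1 fell, beside 12.8% higher and 8.5% lower among all protein-coding genes tested. The 7 lower calls among receptors include Fzd1, Fzd5, Fzd7 and Lgr6, which were lost when some single samples were left out. The 7 higher calls among secreted members include Wnt2, Wnt10b and Sfrp2, which were lost in the same way and in DESeq2.

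After Rspo2, Dkk2 had the largest log2 fold change of the 36 tested genes. Dkk2, a Dickkopf protein that can either inhibit or activate beta-catenin signalling depending on context, lies at chr3:132085292-132180304 (mm10, plus strand, 4 exons, ENSMUSG00000028031). It had 109, 129 and 131 counts in control against 318, 439 and 388 in cKO samples, or 1.93, 2.04 and 2.13 against 6.63, 7.42 and 6.95 CPM. Every cKO sample was more than 3 times the highest control sample, and the log2 fold change was 1.76 ± 0.09 (SE) with an adjusted p of 3.42e-09 in edgeR's test.

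Dkk3, a divergent member of the family, did not pass: it had 7.16, 8.67 and 7.09 CPM in control and 6.47, 6.66 and 6.88 CPM in cKO samples, all cKO samples below, with a log2 fold change of -0.22 ± 0.08 and an edgeR adjusted p of 0.090. Per kb, Dkk3 stood at 3.66 to 4.69 times Dkk2 in the control samples and at 0.9899 to 1.09 times in the cKO samples. The more abundant Dickkopf gene of control cells was thus at about the level of Dkk2 in cKO cells.

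Of the secreted Frizzled-related genes, Sfrp1 had 61, 47 and 59 counts in control against 89, 106 and 85 in cKO samples, without overlap in CPM (log2 fold change 0.87 ± 0.17, SE, edgeR adjusted p = 0.00177). Sfrp2 had 1.31, 1.41 and 1.56 CPM in control and 2.38, 2.18 and 1.76 CPM in cKO samples (0.53 ± 0.14, edgeR adjusted p = 0.0189). Its call was lost in DESeq2 and without control replicates 1 or 2 or cKO replicates 1 or 2, with adjusted p up to 0.0758, and Gm26771 on the other strand overlaps 16.1% of its exon bases. Frzb (log2 fold change 0.06, edgeR adjusted p = 0.929) and Sfrp4 (-0.53, 0.234), with 15 to 33 counts per sample, overlapped between the groups.

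The summed level of the Sfrp, Frzb and Dkk genes, plotted as secreted inhibitors, was 3.96 ± 0.21 CPM per kb in control and 5.49 ± 0.17 in cKO cells (SD, n = 3), without overlap. Most of this difference was that of Dkk2 itself, at 0.554 and 1.87 CPM per kb after TMM scaling, which the sum did not use. The sum leaves out Sost, the gene of another secreted inhibitor, which stood at 2.13 ± 0.21 and 1.12 ± 0.32 CPM per kb. In the sum, Dkk2 went from 13.9% ± 0.8 to 34.4% ± 1.9 and Dkk3 from 57.3% ± 4.0 to 36.2% ± 2.1.

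Rspo2 was the only R-spondin that could be tested, and it passed the count filter only through its cKO samples. It had 4, 5 and 4 counts in control against 17, 18 and 19 in cKO samples, without overlap, and the log2 fold change was 2.15 ± 0.36 (SE) with an adjusted p of 0.000671 in edgeR's test. With so few counts the 95% interval was wide, from 1.38 to 2.93. Its level in cKO cells, 0.0647 CPM per kb, remained far below that of its receptor Lgr4 at 6.29 CPM per kb.

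Lgr4 had 44.4, 45.0 and 45.9 CPM in control and 34.2, 40.5 and 37.3 CPM in cKO samples, all cKO samples below, with a log2 fold change of -0.30 ± 0.05 (SE, edgeR adjusted p = 0.000554). Lgr6 had 28.0, 33.1 and 33.9 against 25.4, 29.6 and 25.9 CPM (-0.25 ± 0.07, edgeR adjusted p = 0.0168) with overlapping samples, and lost its call without cKO replicate 3 or control replicate 2 or 3, with adjusted p up to 0.107. Lgr5, a stem cell marker of the intestine, had 19 to 30 counts per sample and a log2 fold change of 0.43 (edgeR adjusted p = 0.317).

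Axin2, the feedback target used as a readout of beta-catenin signalling, had 1.77, 2.29 and 2.33 CPM in control and 2.06, 1.96 and 1.79 CPM in cKO samples. The samples overlapped, and the 95% interval of its log2 fold change ran from -0.45 to 0.12 (edgeR adjusted p = 0.473). These values rest on 99 to 145 counts per sample.

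**Figure D4:**
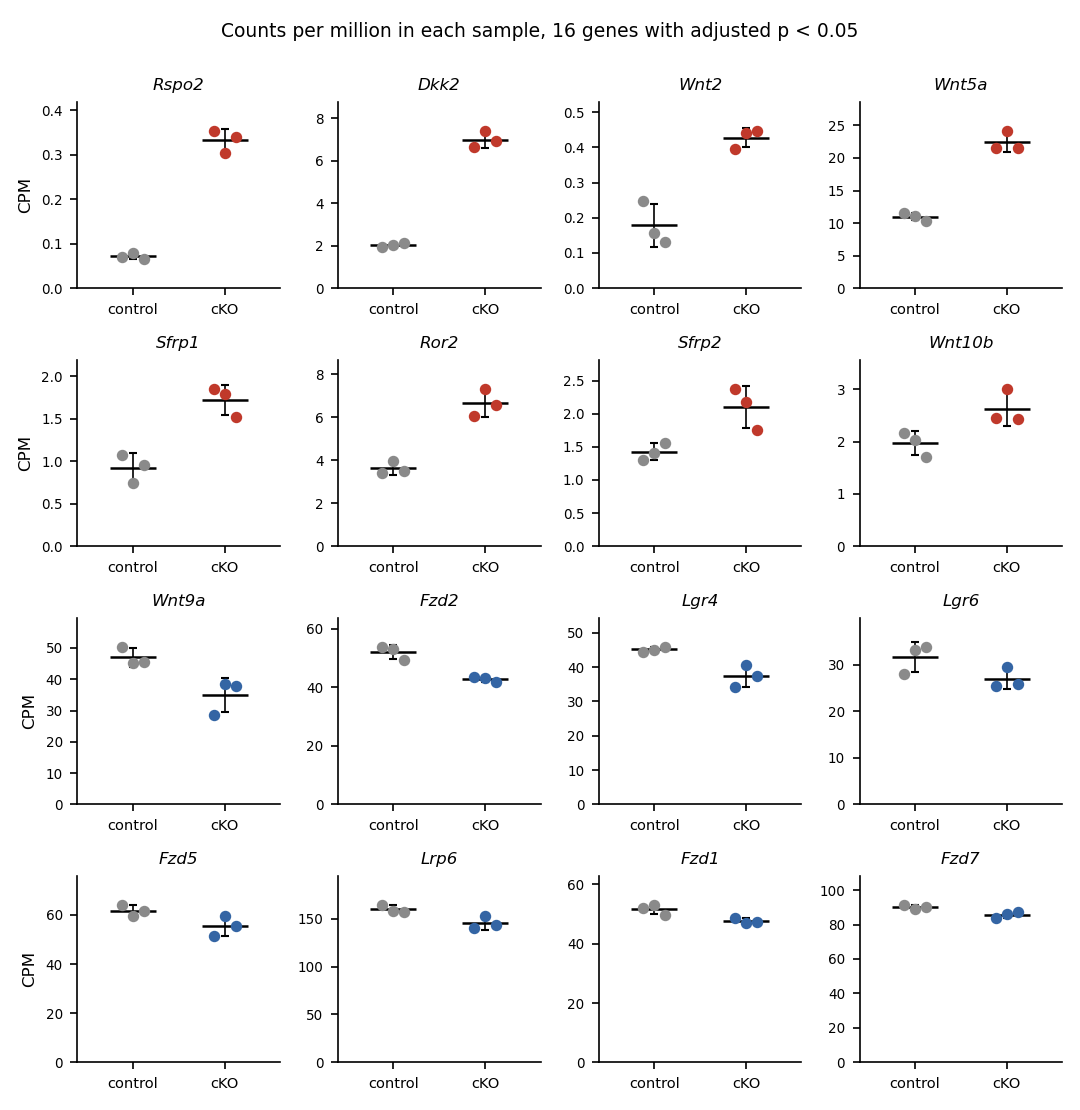
Each panel gives the CPM of 1 of the 16 called genes in the 3 control (grey) and 3 cKO samples (red where higher, blue where lower), with the group mean and SD in black and an axis that starts at 0. Dkk2, Wnt5a, Ror2, Rspo2, Wnt2 and Sfrp1 show wide gaps between the groups, whereas in Fzd1, Fzd7 and Lrp6 the gap is a small part of the level.

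The promoters of 4 of these genes are shown, the pair of well-measured risers Dkk2 and Ror2 and, among the genes that fell, Wnt9a and Fzd1, so that the windows of genes that moved apart can be read side by side. Each is the 250 bases upstream of the RefSeq transcription start on the gene's strand, from RefSeq on GRCm38.p6, the assembly named mm10 in the files: Dkk2 at chr3:132085042-132085291 (plus), Ror2 at chr13:53286125-53286374 (minus), Wnt9a at chr11:59306680-59306929 (plus) and Fzd1 at chr5:4758217-4758466 (minus). Capitals mark matches to the TCF/LEF core CTTTGA or its reverse complement TCAAAG, and to the TATA box TATAAA or its reverse complement TTTATA.
Dkk2: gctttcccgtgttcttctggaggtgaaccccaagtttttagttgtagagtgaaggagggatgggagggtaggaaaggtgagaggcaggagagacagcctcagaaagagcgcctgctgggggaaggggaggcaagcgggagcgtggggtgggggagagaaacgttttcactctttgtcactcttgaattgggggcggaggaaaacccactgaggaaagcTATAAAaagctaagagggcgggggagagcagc
Ror2: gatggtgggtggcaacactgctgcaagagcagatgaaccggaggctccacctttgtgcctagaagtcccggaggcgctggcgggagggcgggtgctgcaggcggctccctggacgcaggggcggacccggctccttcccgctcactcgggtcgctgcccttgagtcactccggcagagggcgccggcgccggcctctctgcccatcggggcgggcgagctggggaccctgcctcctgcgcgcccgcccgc
Wnt9a: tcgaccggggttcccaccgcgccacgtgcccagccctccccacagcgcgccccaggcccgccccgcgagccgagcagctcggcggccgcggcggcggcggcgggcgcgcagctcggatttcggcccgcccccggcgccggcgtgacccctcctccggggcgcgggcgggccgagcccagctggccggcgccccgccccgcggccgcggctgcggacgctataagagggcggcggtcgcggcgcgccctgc
Fzd1: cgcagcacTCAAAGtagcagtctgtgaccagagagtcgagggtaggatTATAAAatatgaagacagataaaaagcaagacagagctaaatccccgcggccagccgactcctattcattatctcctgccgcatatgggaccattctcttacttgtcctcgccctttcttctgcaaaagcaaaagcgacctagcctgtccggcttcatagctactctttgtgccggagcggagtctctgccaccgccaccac

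Dkk2 held TATAAA 32 bases before the start, and Fzd1 held TCAAAG at 242 and TATAAA at 202 bases before it. Neither motif was in the windows of Ror2 and Wnt9a in these exact letters. Near matches, such as tataag in the Wnt9a window, were not searched for. The Wnt9a window had 48 CpG dinucleotides, as many as or more than 99.9% of all promoters in the table. The windows of Ror2, Fzd1 and Dkk2 had 24, 12 and 7, and the same share was 89.3%, 68.5% and 57.0%. The median over all promoters was 6. In all, 33 of the 50 genes had a promoter in the table outside chromosome 18, with 36 windows, 11 of them of called genes. The TCF/LEF core was in 6 of the 36 windows, or 16.7%, where 13.8% of all 32851 promoters held it, and the TATA box was in 4, or 11.1%, against 12.4%. The 6 windows with the core belonged to Dkk1, Frzb, Fzd1, Ror1, Wnt5b and Wnt11. A match is a run of letters in the window and no evidence of binding, and in the windows shown no matches overlap.

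Other components of the pathway were counted from a list of 67 genes, of which 62 were tested. Of these, 6 rose and 15 fell, or 33.9% called beside 21.3% of all protein-coding genes, and the share of the calls that were higher was 28.6%. With library totals as the only scaling, 9 were higher and 9 lower. Over all genes, 59.2% of the calls were higher, or 69.96% with library totals. Without control replicate 2, 9 genes were lower. The most abundant per kb were Ctnnb1, which encodes beta-catenin, the kinase gene Csnk1a1, the Dickkopf receptor Kremen1, the Wnt receptor Ryk and the cyclin gene Ccnd1. With the length of the longest transcript, Csnk1a1 came before Ctnnb1 and Wls took the place of Ccnd1. Ctnnb1 had a log2 fold change of -0.06 with an edgeR adjusted p of 0.200, and its CPM overlapped between the groups. Genes on the other strand overlap 14.6% of the exon bases of Ctnnb1 (Ulk4) and 23.4% of those of Ccnd1 (LTO1).

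Several of these genes were inhibitors or partners of the genes above. Sost, which encodes the Lrp inhibitor sclerostin, had 4.69, 4.53 and 3.86 CPM in control and 1.71, 3.08 and 2.22 CPM in cKO samples (log2 fold change -0.90 ± 0.15, edgeR adjusted p = 0.000604). Kremen1, the receptor of Dickkopf proteins, had 512, 523 and 515 against 447, 449 and 430 CPM (-0.25 ± 0.03, 2.37e-05). The groups overlapped for neither gene. Bambi (0.64), the glypican gene Gpc3 (0.68) and the Dishevelled antagonist gene Nkd2 (0.56) rose.

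Of the 13 nuclear effectors, 5 fell (38.5%), among them Tcf7 (-0.40), Tle4 (-0.33) and Pygo1 (-0.24). For this and the next lists, 12.8% of all protein-coding genes tested rose and 8.5% fell. Of the 10 tested genes on the list of widely used transcriptional targets, 3 rose (Bambi, Myc at 0.26 and Ccnd1 at 0.13) and 3 fell (Tnfrsf19 at -0.42, Tcf7 and Znrf3 at -0.19). In planar cell polarity 1 of 11 rose and 3 fell. In cytoplasmic signal transduction 1 of 18 rose and 3 fell, Gsk3b at -0.16 among them, so that 22.2% of this list was called, near the 21.3% of all protein-coding genes. The 2 tested genes of ligand processing, Porcn and Wls, did not pass the threshold.

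Markers of other cell types moved in the same comparison. The summed CPM of the fibroblast list was 208 to 215 in control and 305 to 343 in cKO samples, that of the macrophage list 137 to 142 and 290 to 340, that of the endothelial list 36.7 to 39.0 and 54.1 to 62.7, and that of the satellite cell and myoblast list 7096 to 7233 and 6317 to 6779. In pericyte and smooth muscle genes 7 of 9 rose and 2 fell, in glial genes 2 of 8 rose, and in tenocyte genes 1 of 5 rose and 1 fell. These counts stand beside 12.8% higher and 8.5% lower among all protein-coding genes tested. The fibroblast marker Pdgfra went from 1325 to 1450 counts in control samples to 2427 to 3318 in cKO samples, Lum had 2, 0 and 1 against 5, 6 and 12 counts, and Clec3b had at most 3 counts. The sort had removed CD45+ cells, and Ptprc, the gene for CD45, had 72 to 94 counts in control and 126 to 169 in cKO samples. No marker of any list was at 0 in all 6 samples. The summed CPM of the satellite cell and myoblast list in cKO samples was 0.912 times that in control. For the Wnt genes called lower, the ratio of mean CPM ran from 0.743 (Wnt9a) to 0.949 (Fzd7). In bulk RNA a change in the number of cells of a type and a change in RNA per cell cannot be told apart. The part of cell make-up in the differences of the called Wnt genes, higher or lower, was not tested.

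**Figure D5:**
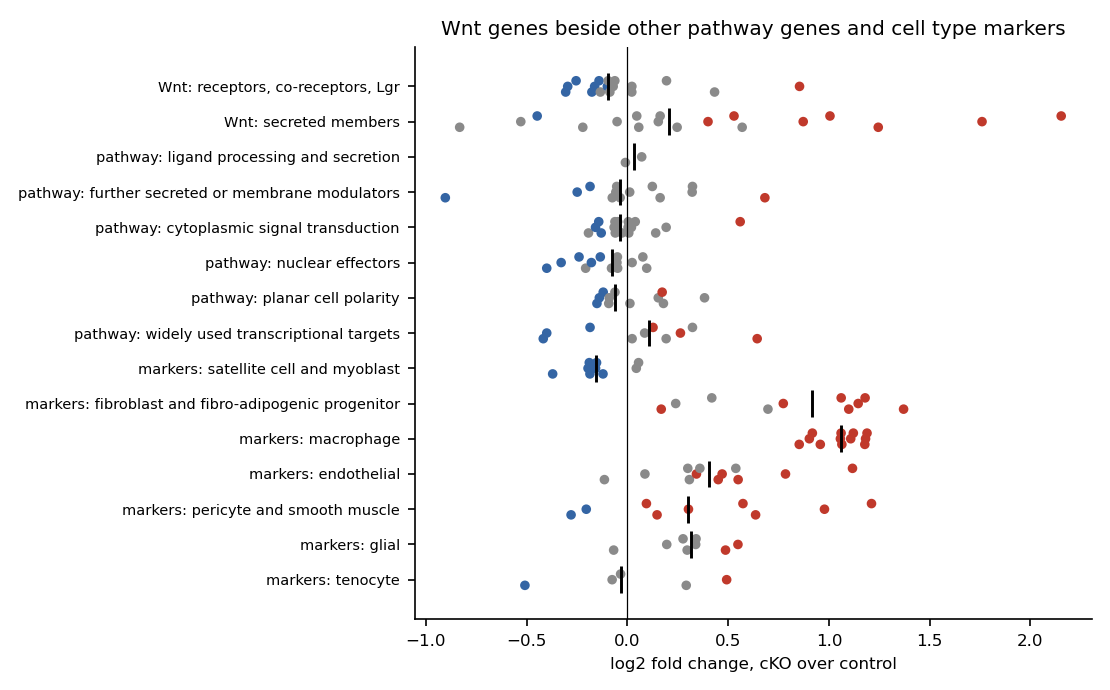
Each point is the log2 fold change of 1 tested gene (red higher, blue lower, grey not called), in rows for the Wnt genes split into receptors and secreted members, the other pathway lists and the marker lists, and black bars give each row's median. The medians were -0.10 for receptors and 0.20 for secreted Wnt members, beside 0.92 for fibroblast, 1.06 for macrophage and -0.16 for satellite cell and myoblast markers.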

How the data were processed

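RNA-seq was made from 3 control and 3 Hira cKO samples. Raw read counts per gene were deposited by the authors, who used Bowtie2 2.3.4.2 on mm10 and featureCounts 1.6.3, and the strand setting is not given in the sources used here. A second deposited table holds normalized counts and another the authors' comparison (fold changes and p-values), and neither was used. The member rule uses symbols only, but it, the pathway lists and the marker lists were chosen with earlier results of these data known, so their counts are descriptions. Symbols came from GENCODE M21, which held all 55536 identifiers. Counts were filtered with filterByExpr, scaled by TMM and tested with edgeR 4.0.16 (quasi-likelihood, genotype as the only term, R 4.3.3) over 22404 genes at an adjusted p under 0.05. The biological coefficient of variation was 3.92%. CPM used library totals. Levels of single genes per kb used TMM-scaled totals and the exon union, and summed levels per kb used library totals and the exon union. A check of the test on simulated data used larger changes than those of the Frizzled genes, and some of its calls were false. Alternatives were DESeq2 1.42.0, a likelihood-ratio test, other scalings and filters, a replicate block and leaving out each sample. Replicates differed beyond counting noise. Hira, every called member, the 10 most abundant members, those whose call changed under an alternative, and called or abundant pathway genes are named. Intervals cover the spread between samples. Protein sequences were not analysed here.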

Additional observations from a re-analysis of the deposited data

How the results depend on the processing

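For the 19 Wnt genes called with all samples or under an alternative, no log2 fold change reversed in 243 refits, of which 201 kept their side of the threshold, 35 lost the call and 7 gained it. With DESeq2 4 Wnt genes were higher in place of 8, Dkk2, Ror2, Sfrp1 and Wnt5a. Leaving out 1 sample gave 5 to 8 higher and 4 to 7 lower Wnt genes, 9 to 15 lower genes among the other pathway genes, 917 to 1673 lower among all genes, a median log2 fold change of the Wnt genes of -0.02397 to 0.02871, and -0.52 to -0.29 for Hira. With library totals as the only scaling, 9 other pathway genes were lower and the median was 0.0097. With a minimum of 1 CPM in 3 samples the median was -0.0734, with 6 Wnt genes higher and 8 lower, since low genes such as Rspo2 were not tested. Fzd8 gained a call under 5 alternatives, Dkk3 without a filter and Wnt2b with the likelihood-ratio test. The same replicate numbers occur in both groups, and no source says that they pair the samples. Correlations of deviations were -0.0129, -0.0045 and -0.0145 for equal numbers and -0.0074 to 0.0204 for unequal ones. These values show no pairing but cannot exclude one. With the replicate block, 7 Wnt genes were higher and 7 lower, and Wnt10b and Fzd7 lost their calls. The cause of these shifts was not tested. Depth limits the genes under 30 counts, among them Rspo2, Wnt2, Wnt6 and Wnt7b.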
